A study of Mus musculus with 15 samples.

Results

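The comparison described here sets 2 pools of liver RNA from H2D mice against 2 pools from NCD mice, 4 of the 15 libraries of the series. Both groups were male wild-type C57BL/6 mice that received the liver carcinogen DEN (diethylnitrosamine) by intraperitoneal injection at 2 weeks of age and were killed at 40 weeks. H2D mice were sons of F1 females of a high-fat line, in which females ate a diet with 60% of its energy from fat from 1 to 3 months of age and were mated with chow-fed males, and the H2D mice themselves were kept on that diet. NCD mice were sons of the F0 generation and stayed on chow, so that own diet, maternal ancestry and breeding cohort all differ between the groups and cannot be told apart. The other high-fat groups, H1D (sons of F0 females) and H3D (sons of F2 females), and the Nor mice, which received PBS in place of DEN and chow, enter only where stated. All genes of the mRNA table were considered. Transcripts were summed to 21949 genes, and the 11557 genes with at least 1 FPKM (sequenced fragments relative to transcript length and library size) in at least 2 of the 10 long RNA libraries were tested.

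DEN is activated by hepatic cytochrome P450 enzymes to a DNA-alkylating agent, and a single dose in infant male mice leads to hepatocellular tumours in adulthood, more readily when the mice are fat. The hepatocyte is also the source of most plasma proteins. During inflammation, interleukin 6 acting through STAT3, together with interleukin 1 acting through NF-κB and C/EBP factors, raises the acute phase proteins, while many drug-metabolising enzymes become less abundant. Sex-biased liver genes depend on the pattern of growth hormone secretion.

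The pools mix RNA of 4 to 8 mice per group, 2 pools each, so the spread given below is that between pools and not between animals, and the tissue sampled is whole liver with whatever tumour it held. The summed FPKM of a library was 628435 and 608708 in the H2D pools and 676268 and 660821 in the NCD pools. The smallest steps between low values put the depth of the H2D pools at 1.10 and 1.16 times that of NCD pool 1 and the depth of NCD pool 2 at 0.933 times, so depth differed little, but absolute depth is unknown and no counting interval could be given. Pools of a group correlated at 0.989 in H2D and 0.991 in NCD. Defining hepatocyte genes were abundant in all 4 pools. Albumin, Alb, had 40360 and 33486 FPKM in H2D and 46561 and 43459 FPKM in NCD. Fewer cells of a type and less RNA per cell cannot be told apart in such tissue.

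Of the 11557 genes, 471 passed a Benjamini-Hochberg adjusted p of 0.05 in limma, which is 4.08% of those tested. H2D was higher for 248 of them (2.15%) and lower for 223 (1.93%), and 2289 genes had an unadjusted p under 0.05. Counts of called list members given below are to be read beside these shares. The median difference over all genes was -0.003 on the log2 scale. All log2 differences are H2D minus NCD on log2(FPKM + 0.5), so they understate the change of genes near or below 0.5 FPKM. Rises and falls named below are those of H2D relative to NCD and do not tell which group moved. Among the called genes 35 were higher by at least 2 log2 units and 32 lower by as much. Of the 248 genes called higher, 138 were under 5 FPKM in NCD on average. The share under that limit among all genes tested was not counted, so the number is not read as a trait of the higher side. When libraries were scaled to equal FPKM sums, the median of all genes moved to 0.1 and the split to 339 higher and 138 lower. The count rests on all 4 pools: it was 159 without H2D replicate 1, 39 without H2D replicate 2, 46 without NCD replicate 1 and 32 without NCD replicate 2. Each of those fits rests on a lone pool assumed to vary like the other groups. Leaving out a pool of another group cannot change the difference between H2D and NCD. It does move the count, because the spread behind each p was estimated from all 10 long RNA pools. More genes were called without a Nor pool and fewer without an H1D or H3D pool. Where H2D and NCD pools do not overlap, leaving out 1 of them cannot reverse the difference, so a kept direction is no separate test. Pools also stood apart for uncalled genes such as Cd36, Fasn and Mki67. The share of all genes without overlap is not given here, so a lack of overlap adds nothing to a call. All 471 genes kept their direction whichever of the 10 long RNA pools was left out, and 22 genes, 15 of them higher in H2D, kept their call each time. Among these 22 were Itih3, Lrg1, Lcn2, Serpina3n, Itih4, Fgl1, Saa1, Saa2, Orm2, Col5a2, Me1, Cml5 and Cyp2d9; every call outside the 22 ended when some pool was left out.

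**Figure D1:**
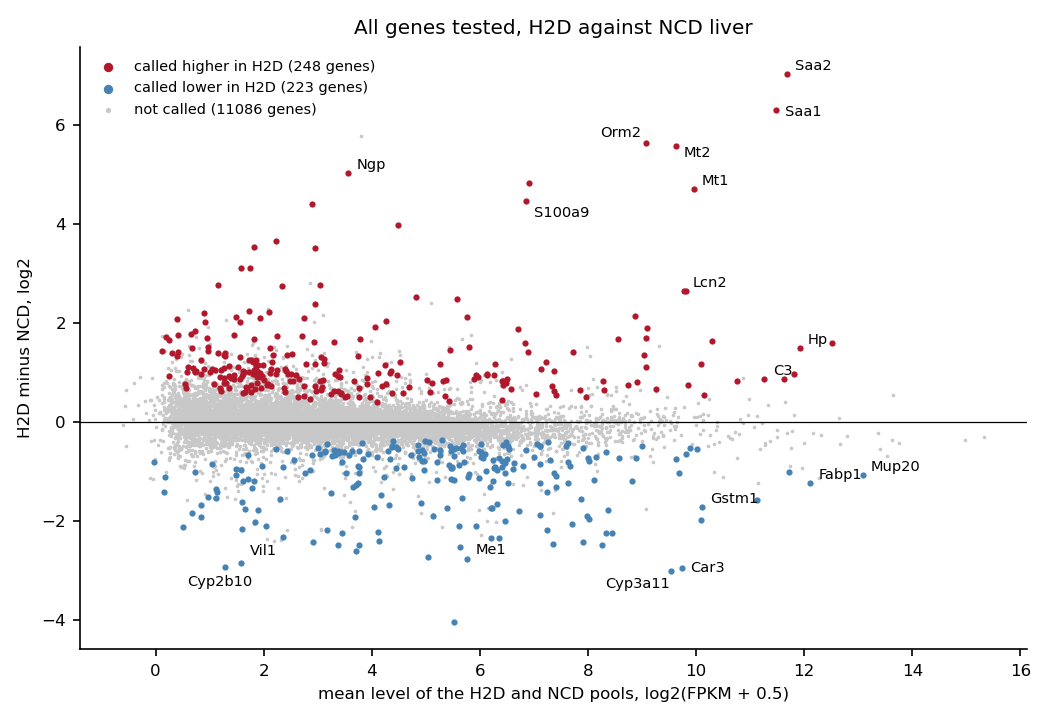
Difference between H2D and NCD (log2, vertical axis) against mean level in the 4 pools (log2 of FPKM + 0.5, horizontal axis) for the 11557 genes tested, each point 1 gene. Red points (248) were called higher and blue points (223) lower in H2D; serum amyloid, orosomucoid, metallothionein and neutrophil genes stand at the top, and Cyp3a11, Car3 and Cyp2b10 among the lowest.

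The 3 largest called rises were the acute phase genes Saa2, Saa1 and Orm2. Of 31 acute phase genes tested, all of those listed, 21 rose and 0 fell, against 2.15% of all genes called higher. The median difference was 1.47 against -0.003 for all genes. Of the 31 differences 29 were above 0 and 2 below. The lowest, -1.10, is the value of hepcidin, Hamp, which was not called. Saa2 (ENSMUSG00000057465, chromosome 7, 46751833 to 46754313 on GRCm38), a serum amyloid A apolipoprotein, had 3639 and 9429 FPKM in H2D and 35.2 and 56.0 FPKM in NCD. Its neighbour Saa1 (chromosome 7, 46740497 to 46743181) had 3479 and 7849 FPKM in H2D and 51.0 and 84.3 FPKM in NCD. The lower H2D pool stood far above both NCD pools for either gene, although the H2D pools themselves differed more than the NCD pools did. The differences were 7.03 ± 0.72 for Saa2 and 6.31 ± 0.60 for Saa1 (limma standard error, adjusted p = 0.00468 for both). Orm2 (chromosome 4, 63362449 to 63365877), an orosomucoid that binds lipophilic compounds in plasma, had 794 and 1311 FPKM in H2D and 19.3 and 20.7 FPKM in NCD, a difference of 5.64 ± 0.57 (adjusted p = 0.00468). Saa1 and Saa2, and Orm1 to Orm3, are close copies, which leaves each copy's own value uncertain because reads may be divided between them.

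The promoters of Saa1, Saa2 and Orm2 are shown because these genes had the largest called differences, and that of Itih4 because it is the called acute phase gene of smallest p whose window holds a STAT-type palindrome. The sequences are the 250 bases before the start given for each gene in RefSeq on GRCm38.p6, printed 5′ to 3′ on the strand of the gene, with matches to the motifs named after them in capitals. The windows are chr7:46742981-46743230 (minus strand) for Saa1, chr7:46751583-46751832 (plus) for Saa2, chr4:63362199-63362448 (plus) for Orm2 and chr14:30886226-30886475 (plus) for Itih4, an inter-alpha-trypsin inhibitor heavy chain. RefSeq's interval for Saa1 reaches into the window shown for it.
Saa1: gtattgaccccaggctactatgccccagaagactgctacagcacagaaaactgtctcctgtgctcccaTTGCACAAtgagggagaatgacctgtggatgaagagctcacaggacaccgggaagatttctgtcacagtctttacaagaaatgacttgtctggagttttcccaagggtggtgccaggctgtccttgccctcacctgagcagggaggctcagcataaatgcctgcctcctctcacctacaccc
Saa2: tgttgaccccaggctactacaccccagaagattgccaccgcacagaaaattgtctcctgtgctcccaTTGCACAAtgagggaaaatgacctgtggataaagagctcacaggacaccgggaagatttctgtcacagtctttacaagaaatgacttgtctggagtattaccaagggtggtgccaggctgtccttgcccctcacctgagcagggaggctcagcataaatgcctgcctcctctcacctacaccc
Orm2: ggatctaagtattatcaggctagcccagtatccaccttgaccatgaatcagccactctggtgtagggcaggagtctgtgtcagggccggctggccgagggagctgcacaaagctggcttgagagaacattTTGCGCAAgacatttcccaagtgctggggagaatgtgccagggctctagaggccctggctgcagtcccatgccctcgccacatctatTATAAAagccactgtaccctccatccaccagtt
Itih4: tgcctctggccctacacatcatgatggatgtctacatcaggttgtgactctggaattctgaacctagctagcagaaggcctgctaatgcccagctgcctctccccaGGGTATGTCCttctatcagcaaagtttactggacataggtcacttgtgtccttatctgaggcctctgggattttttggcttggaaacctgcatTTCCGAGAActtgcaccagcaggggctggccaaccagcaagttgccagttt
The motifs searched on both strands were TTCNNNGAA (the STAT-type palindrome), GGGNNNNTCC (half-sites of NF-κB type), TTGNNCAA (half-sites of C/EBP type), TATAAA (the TATA box) and AGGTCANAGGTCA (a nuclear receptor repeat). Saa1 and Saa2 share the C/EBP-type match TTGCACAA, 182 to 175 bases before the start in Saa1 and 183 to 176 in Saa2, and the windows are identical at 94.8% of 251 aligned positions. Orm2 holds TTGCGCAA at 120 to 113 bases and a TATA box at 33 to 28 bases before its start. Itih4 holds the STAT-type match TTCCGAGAA at 51 to 43 bases and an NF-κB-type match at 144 to 135 bases. Over all promoters of genes called higher, 12.7% of 236 windows held the STAT-type palindrome, against 5.11% of 235 windows of genes called lower and 6.01% of 11708 windows of genes tested. The C/EBP-type half-sites stood in 9.32% of windows of genes called higher, 7.23% of those called lower and 4.93% of those tested, and the NF-κB-type half-sites in 22%, 22.6% and 20.6%. The TATA box stood in 11.9%, 9.36% and 7.02%. The nuclear receptor repeat stood in 0 windows of called genes and in 3 of the 11708 windows of genes tested (0.0256%). It is too rare for its absence to tell anything of the called genes. Of the 471 called genes 367 had a window, some of them more than 1. These shares describe letters in a fixed window and say nothing of binding.

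The members with the smallest p in this group were secreted or released proteins with smaller but steadier differences. Itih3 (chromosome 14, 30908572 to 30923787), a hyaluronan-binding inter-alpha-trypsin inhibitor chain, had 795 and 844 FPKM in H2D and 245 and 256 FPKM in NCD, a rise of 1.71 ± 0.09 (adjusted p = 0.000865). Lrg1, a leucine-rich glycoprotein that modulates TGF-β signalling in vessels, had 804 and 917 FPKM in H2D and 228 and 230.1 FPKM in NCD (1.90 ± 0.11, adjusted p = 0.000979). For both genes the gap between the groups was many times the gap between pools. Lcn2 (chromosome 2, 32384637 to 32387739), the siderophore-binding lipocalin made by both hepatocytes and neutrophils, had 1216 and 1803 FPKM in H2D and 199 and 280.4 FPKM in NCD (2.65 ± 0.21, adjusted p = 0.00313). Fgl1, a hepatocyte-secreted fibrinogen-like protein, rose by 2.66 ± 0.25, and the protease inhibitor Serpina3n by 1.68 ± 0.13. The haemoglobin scavenger haptoglobin, Hp, had 5323 and 6085 FPKM in H2D and 2010.1 and 2024 FPKM in NCD, and the haem scavenger haemopexin, Hpx, 7935 and 9793 FPKM in H2D and 2986 and 2818 FPKM in NCD. The 3 fibrinogen chains rose together, Fga by 0.97 ± 0.14, Fgb by 0.83 ± 0.13 and Fgg by 0.88 ± 0.16. The pentraxin Apcs, serum amyloid P, rose by 2.14 ± 0.33, while C-reactive protein, Crp, a minor acute phase reactant in the mouse, had 318 and 302 FPKM in H2D and 206 and 215 FPKM in NCD, which was not called (adjusted p = 0.152). The negative acute phase protein transthyretin, Ttr, fell (-1.01 ± 0.11), with 2333 and 2166 FPKM in H2D and 4589.7 and 4452 FPKM in NCD. Acute phase genes supplied 7.64% and 10.0% of the summed FPKM in the H2D pools and 2.95% and 3.05% in the NCD pools. Without 1 H2D or NCD pool, 9 to 13 genes of the list were called.

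Receptors and transcription factors upstream of these proteins were measured at far lower levels. Of 30 genes of interleukin 6, interleukin 1 and STAT3 signalling tested, 6 rose and 0 fell, with a median of 0.38 (0 to 4 calls without 1 H2D or NCD pool). The interleukin 1 receptor Il1r1 had 26.4 and 25.2 FPKM in H2D and 6.20 and 6.77 FPKM in NCD, a rise of 1.91 ± 0.27 (adjusted p = 0.0126). Osmr, the oncostatin M receptor chain, rose by 1.36 ± 0.15 and the TNF receptor Tnfrsf1a by 0.53 ± 0.09. Stat3 itself had 48.2 and 53.7 FPKM in H2D and 28.0 and 28.4 FPKM in NCD (0.84 ± 0.10, adjusted p = 0.00625). Its groups did not overlap, and neither did those of the uncalled Socs3 below. The nuclear IκB proteins Nfkbiz (1.36 ± 0.17) and Bcl3 (0.99 ± 0.16), which modulate NF-κB target genes, rose as well. Socs3, the feedback inhibitor of this pathway, had 12.5 and 11.7 FPKM in H2D and 4.79 and 3.77 FPKM in NCD, without a call (1.41 ± 0.41, adjusted p = 0.11).

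Metallothioneins Mt1 and Mt2 were among the largest rises, while most other genes of metal handling were not called. Mt1 (chromosome 8, 94178883 to 94180327), a metallothionein that buffers zinc and copper, had 1657 and 2168 FPKM in H2D and 73.1 and 71.3 FPKM in NCD. Its neighbour Mt2 (chromosome 8, 94172618 to 94173567) had 1359.7 and 1727 FPKM in H2D and 37.3 and 26.9 FPKM in NCD. Both H2D pools lay more than an order of magnitude above both NCD pools, with differences of 4.70 ± 0.61 for Mt1 (adjusted p = 0.00954) and 5.57 ± 0.87 for Mt2 (adjusted p = 0.0177). The zinc importer Slc39a14 rose by 0.94 ± 0.19, and Slc39a4, the main intestinal zinc importer, fell (-0.80 ± 0.16). Of 11 genes in that list 3 rose and 1 fell (0 to 1 calls without 1 H2D or NCD pool). Of 21 iron-handling genes 5 rose and 0 fell, all of which are acute phase genes too (Lcn2, Hp, Hpx, Cp and Steap4). Hamp, the iron hormone hepcidin, had 1093 and 758 FPKM in H2D and 1987 and 1912 FPKM in NCD. It lay lower in both H2D pools but was not called (-1.10 ± 0.49, adjusted p = 0.268).

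A few complement genes rose, to be read beside the 2.15% of all genes called higher. Of 38 complement and coagulation genes 5 rose and 0 fell (0 to 2 without 1 H2D or NCD pool), and the median was 0.17. The central component C3 had 3095 and 3258 FPKM in H2D and 1755 and 1717 FPKM in NCD (0.87 ± 0.14, adjusted p = 0.0177). C4b (0.84 ± 0.10), the C1 inhibitor Serping1 (0.75 ± 0.13) and the anticoagulant protein S, Pros1 (0.80 ± 0.11), rose too. The groups did not overlap for these 4 genes, which also held for some uncalled genes.

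**Figure D2:**
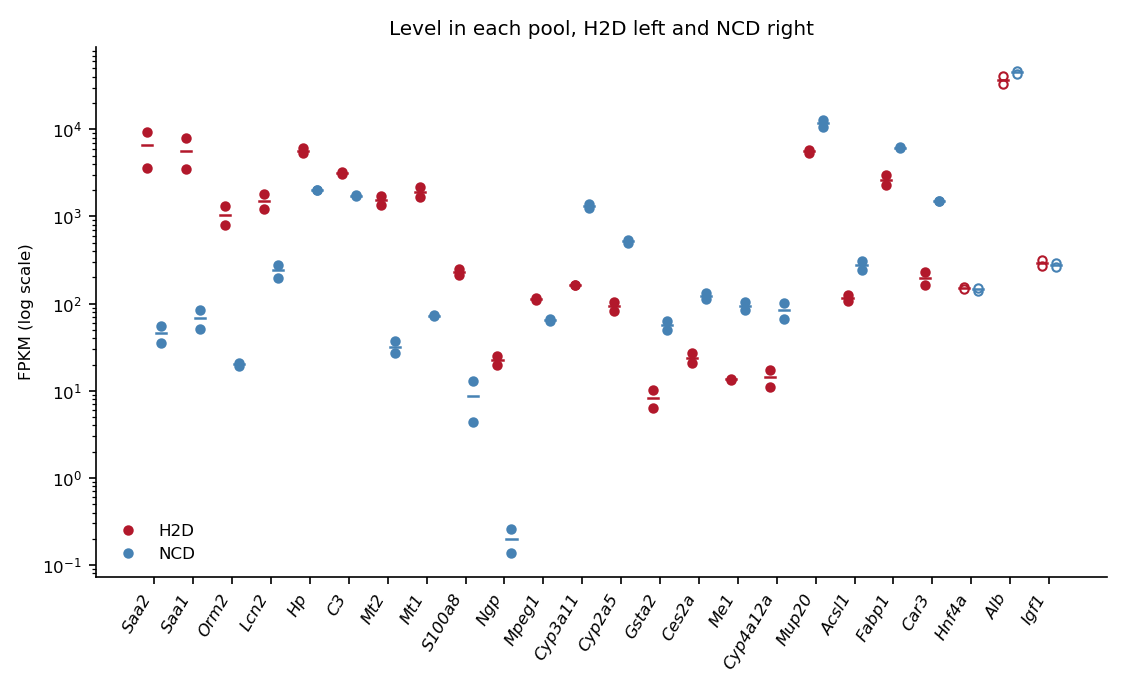
Level in each pool (FPKM, log axis) of 24 genes, H2D pools in red on the left and NCD pools in blue on the right of each pair, with a bar at the mean of 2 pools. Filled points are genes called in H2D minus NCD; the open points of Hnf4a, Alb and Igf1 were not called and lie close together or overlap.

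Neutrophil genes were low in NCD and rose in H2D, where 2.15% of all genes were called higher. Of 22 listed markers 19 were tested, and 16 rose and 0 fell, with a median of 2.76. This count is not independent of the filter, because 13 of the 19 were under 1 FPKM in both NCD pools and entered the test through higher values in other libraries, H3D among them (18 of the 19 pass the filter without the H2D pools). S100a8 (chromosome 3, 90669071 to 90670034), which forms the calprotectin of neutrophil cytosol with S100a9, had 215 and 249 FPKM in H2D and 13 and 4.4 FPKM in NCD (4.83 ± 0.89, adjusted p = 0.0272). The granule protein Ngp had 19.9 and 24.9 FPKM in H2D and 0.260 and 0.138 FPKM in NCD, and the cathelicidin Camp 12.4 and 15.0 FPKM in H2D and 0.379 and 0 FPKM in NCD. Each H2D pool lay far above each NCD pool for these genes. Prtn3, a granule serine protease, rose by 3.98 ± 0.62, lactoferrin, Ltf, by 3.53 ± 0.51, and Chil3, a chitinase-like lectin also made by macrophages, by 3.65 ± 0.63. Retnlg moved the same way, with 7.29 and 9.31 FPKM in H2D and 0.817 and 0.764 FPKM in NCD. So did the G-CSF receptor gene Csf3r, with 1.6 and 2.14 FPKM in H2D and 0.774 and 0.631 FPKM in NCD. Without Lcn2, which hepatocytes also make, the markers summed to 528 and 636 FPKM in H2D and 40.4 and 17.3 FPKM in NCD. Without 1 H2D or NCD pool, 1 to 3 genes of the list were called. The part of these cells in the acute phase result was not tested.

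Some macrophage markers rose, to be read beside the 2.15% of all genes called higher. Of 26 tested 6 rose and 0 fell, all 26 differences were above 0 and the median was 0.85 (0 to 4 calls without 1 H2D or NCD pool). The pore-forming protein gene Mpeg1 had 109 and 116 FPKM in H2D and 66.8 and 63.1 FPKM in NCD (0.79 ± 0.10, adjusted p = 0.00995). Trem2, a lipid receptor of macrophages in fat-laden tissue, had 2.54 and 3.34 FPKM in H2D and 0.916 and 0.768 FPKM in NCD (1.35 ± 0.19, adjusted p = 0.0127). The monocyte chemokine receptor Ccr2 (0.93 ± 0.17), the Fc receptor Fcgr1 (0.97 ± 0.18), the protease Ctss (0.92 ± 0.19) and the complement chain C1qb (0.98 ± 0.22) rose. The Kupffer cell lectin Clec4f had 58.7 and 56.9 FPKM in H2D and 39.6 and 33.0 FPKM in NCD (limma adjusted p = 0.259), and the pan-macrophage gene Adgre1 had 17.8 and 18 FPKM in H2D and 11.4 and 8.36 FPKM in NCD (adjusted p = 0.124), neither of them called. The list summed to 1031 and 1146 FPKM in H2D and 665 and 551 FPKM in NCD. Of 17 chemokines and growth factors of leukocytes 1 rose, against 2.15% of all genes. It was Cxcl14, with 16.1 and 11.7 FPKM in H2D and 1.68 and 1.49 FPKM in NCD (2.77 ± 0.31). Cxcl1, a neutrophil attractant, had 109.6 and 67.0 FPKM in H2D and 26.0 and 24.0 FPKM in NCD, without a call (limma adjusted p = 0.141).

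Markers of other cell types had 0 to 2 calls a list, which in lists this short is to be read beside the 4.08% of all genes called. Of 11 lymphocyte markers 0 were called, with a median of 0.02. Of 28 collagen and stellate cell genes 1 rose, the fibrillar collagen gene Col5a2, at 8.04 and 12.8 FPKM in H2D and 1.73 and 2.28 FPKM in NCD (2.1 ± 0.22, adjusted p = 0.0047). The main fibrosis collagen Col1a1 had 2.47 and 5.26 FPKM in H2D and 2.46 and 3.43 FPKM in NCD, and these values overlap. Among 20 endothelial genes Vwf, the clotting factor of vessel walls, rose (2.1 ± 0.44) and Dnase1l3, a secreted nuclease of sinusoidal cells, fell (-0.41 ± 0.09). Of 9 erythroid genes 1 rose, the globin gene Hbb-bt, at 155 and 188 FPKM in H2D and 68.6 and 58.4 FPKM in NCD (1.42 ± 0.32), and the list median was 1.37. Of 8 cholangiocyte and ductular genes 1, the keratin Krt23, fell (-1.61 ± 0.34). Of 16 hepatocyte markers 1 fell, Ttr, and the list median was 0.02. The hepatocyte list summed to 90152 and 79461 FPKM in H2D and 95510 and 89411 FPKM in NCD.

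Several enzymes of drug metabolism fell. Of 39 cytochrome P450 genes of drug metabolism and their regulators, 14 fell and 1 rose, against 1.93% lower and 2.15% higher among all genes, and the median was -0.64. Cyp3a11 (chromosome 5, 145854607 to 145879854), a main mouse CYP3A enzyme and target of the pregnane X receptor, had 164 and 164 FPKM in H2D and 1264 and 1390.4 FPKM in NCD (-3.01 ± 0.42, adjusted p = 0.0125). Cyp2b10, the classic target of the constitutive androstane receptor, had 0.0851 and 0.0341 FPKM in H2D and 4.24 and 3.33 FPKM in NCD (-2.93 ± 0.35). In both cases the pools of the groups stood wide apart. Cyp2a5, a coumarin hydroxylase that also activates nitrosamines, had 82.3 and 104 FPKM in H2D and 502 and 541 FPKM in NCD (-2.49 ± 0.32). Cyp1a2, a target of the aryl hydrocarbon receptor, had 55.3 and 50.1 FPKM in H2D and 179.6 and 317 FPKM in NCD (-2.17 ± 0.29). The falls included 5 Cyp2c genes, with Cyp2c29 at 135 and 109.6 FPKM in H2D and 545 and 599.9 FPKM in NCD and Cyp2c55 at 0.520 and 0.706 FPKM in H2D and 4.10 and 4.81 FPKM in NCD. Cyp3a13 rose, at 112 and 106 FPKM in H2D and 62.2 and 59.7 FPKM in NCD. Cyp2e1, which activates DEN, had 1465 and 1155 FPKM in H2D and 2072 and 2208 FPKM in NCD, without a call (-0.72 ± 0.22, adjusted p = 0.118). The constitutive androstane receptor gene Nr1i3 had 17.6 and 14.2 FPKM in H2D and 25.0 and 27.7 FPKM in NCD, without a call (limma adjusted p = 0.137). Without 1 H2D or NCD pool, 1 to 6 genes of this list were called. Genes of the Cyp2c, Cyp3a, Ces1, Ugt2b, Gstm and Mup families are near-identical in part, and their single values are uncertain for that reason.

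Conjugating enzymes and transporters followed, where 1.93% of all genes were called lower and 2.15% higher. Of 33 carboxylesterases, glucuronosyltransferases and sulfotransferases, 14 fell and 1 rose, with a median of -0.78 (0 to 11 calls without 1 H2D or NCD pool). The carboxylesterase Ces2a, which hydrolyses esters and acylglycerols, had 27.2 and 20.6 FPKM in H2D and 113 and 133 FPKM in NCD (-2.34 ± 0.24, adjusted p = 0.00468). Ces2c (-1.66 ± 0.21), Ces1g (-2.09 ± 0.32) and Ces1d (-1.89 ± 0.42) fell too. The glucuronosyltransferase genes Ugt2b5 (-1.17 ± 0.15) and Ugt2b36 (-0.79 ± 0.12) fell. Sult1e1, the oestrogen sulfotransferase, went the other way, with 10.1 and 17.4 FPKM in H2D and 0.414 and 1.08 FPKM in NCD (3.51 ± 0.68, adjusted p = 0.0321). Of 23 drug and bile acid transporters 4 fell and 0 rose (0 to 2 calls without 1 H2D or NCD pool). They were the efflux pumps Abcg2 (-0.92 ± 0.11), Abcc2 (-0.73 ± 0.15) and Abcc3 (-1.16 ± 0.24) and the organic anion carrier Slco1a1, which had 41.0 and 26.8 FPKM in H2D and 101 and 123 FPKM in NCD (-1.74 ± 0.26). The bile acid importer Slc10a1 had 169 and 107 FPKM in H2D and 217 and 183 FPKM in NCD, without a call (limma adjusted p = 0.403). Of 18 genes of bile acid synthesis 0 were called. Its rate-limiting enzyme Cyp7a1 had 28.4 and 21.7 FPKM in H2D and 45.2 and 29.7 FPKM in NCD (adjusted p = 0.403), and Cyp8b1, the sterol 12α-hydroxylase, had 31.8 and 24.6 FPKM in H2D and 88.3 and 108 FPKM in NCD (-1.78 ± 0.42, adjusted p = 0.0611).

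Targets of NRF2, the transcription factor of the antioxidant response, and glutathione S-transferases had 16 falls and 0 rises among 32 tested, and 31 of the 32 differences were below 0 (median -0.96; 1 to 9 calls without 1 H2D or NCD pool). Me1 (chromosome 9, 86581363 to 86695914), the malic enzyme that supplies NADPH, had 13.7 and 13.3 FPKM in H2D and 104 and 84.8 FPKM in NCD (-2.75 ± 0.23, adjusted p = 0.00414). Gsta2, an alpha-class transferase, had 10.2 and 6.39 FPKM in H2D and 49.8 and 64.0 FPKM in NCD (-2.73 ± 0.45). The abundant mu-class gene Gstm1 had 663 and 394 FPKM in H2D and 1731 and 1637 FPKM in NCD (-1.72 ± 0.30). In each of these the higher H2D pool lay under the lower NCD pool. The 16 falls are to be read beside the 1.93% of all genes called lower. The epoxide hydrolase Ephx1 fell (-1.30 ± 0.13), as did Ugdh, the maker of UDP-glucuronate (-1.18 ± 0.15), the theta-class Gstt1 (-1.02 ± 0.12) and the cystine transporter Slc7a11 (-2.02 ± 0.41).

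**Figure D3:**
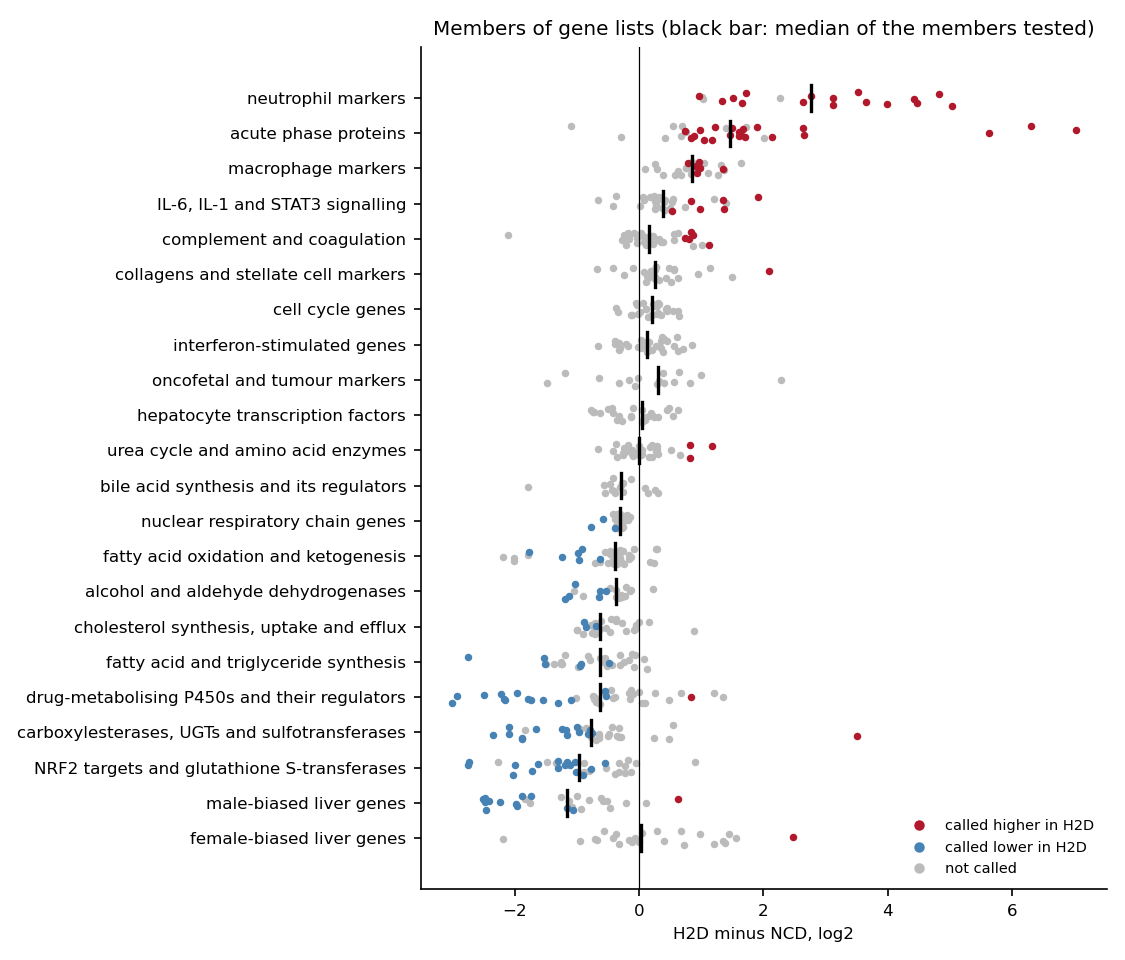
Difference between H2D and NCD (log2) for the tested members of 22 gene lists, 1 point per gene, with the list median as a black bar. Red points were called higher and blue points lower in H2D; neutrophil and acute phase members lie mostly to the right and NRF2, conjugation and male-biased members mostly to the left, while cell cycle, interferon and oncofetal members have no call.

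Some genes of both fatty acid use and fatty acid synthesis fell, and most genes of either list were not called. The counts in this paragraph are to be read beside the 1.93% of all genes called lower. Of 40 genes of fatty acid oxidation and ketogenesis 6 fell and 0 rose (median -0.39; 0 to 1 calls without 1 H2D or NCD pool). The peroxisomal thiolase Acaa1b had 148 and 151 FPKM in H2D and 494 and 525 FPKM in NCD (-1.77 ± 0.26, adjusted p = 0.0149), and the liver fatty acid binding protein gene Fabp1 had 3005 and 2281 FPKM in H2D and 6228 and 6113 FPKM in NCD (-1.24 ± 0.20). The peroxisomal genes Ehhadh (-0.96 ± 0.19) and Pex11a (-0.92 ± 0.15) fell too. Acsl1 (chromosome 8, 46471037 to 46536051), which joins coenzyme A to long-chain fatty acids, had 127 and 108 FPKM in H2D and 246 and 307 FPKM in NCD (-1.23 ± 0.14, adjusted p = 0.00589), the 1 call among 7 long-chain acyl-CoA synthetases. The fatty acid importer Cd36 had 53.3 and 66.2 FPKM in H2D and 52.7 and 52.4 FPKM in NCD, without a call (limma adjusted p = 0.872). Of 29 genes of fatty acid and triglyceride synthesis 6 fell and 0 rose (median -0.63; Me1 was the 1 call without any 1 H2D or NCD pool). Besides Me1 these were Acly, which makes cytosolic acetyl-CoA from citrate (63.9 and 68.1 FPKM in H2D and 144 and 113 FPKM in NCD), the citrate carrier Slc25a1 (-0.49 ± 0.08), the acetate-activating Acss2 (-1.52 ± 0.26), the acyltransferase Gpam (-0.93 ± 0.17) and Pnpla5 (-1.51 ± 0.29). Fatty acid synthase, Fasn, had 61.9 and 49.1 FPKM in H2D and 185 and 94.6 FPKM in NCD and the desaturase Scd1 had 1229.5 and 1464 FPKM in H2D and 3696 and 2706 FPKM in NCD. Neither was called (adjusted p = 0.0874 for Fasn and 0.128 for Scd1), although both H2D pools were below both NCD pools. Of 28 cholesterol genes 3, the synthesis enzymes Sc5d, Tm7sf2 and Fdps, fell, 26 differences were below 0 and the median was -0.62. Of 21 lipid droplet genes 3 fell, among them Fitm1, a protein of droplet formation, with 6.59 and 3.80 FPKM in H2D and 27.1 and 30.4 FPKM in NCD (-2.40 ± 0.36). A few further genes of no list were among the 12 largest falls. Car3, a muscle and liver carbonic anhydrase, had 233 and 165 FPKM in H2D and 1515 and 1494 FPKM in NCD (-2.94 ± 0.32, adjusted p = 0.00583), the actin-bundling protein gene Vil1 had 0.0590 and 0.368 FPKM in H2D and 6.57 and 3.02 FPKM in NCD (-2.84 ± 0.37), and the adhesion receptor Adgrv1 had 2.29 and 1.25 FPKM in H2D and 17.1 and 7.40 FPKM in NCD (-2.42 ± 0.40). The Nor pools had 0.0251 and 0.0255 FPKM of Vil1 and 1.56 and 1.64 FPKM of Adgrv1, nearer to H2D than to NCD. For Car3 they had 1950 and 2391 FPKM, nearer to NCD.

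Alcohol and aldehyde dehydrogenases had 6 falls and 0 rises among 21, with 20 of the 21 differences below 0 and a median of -0.37. Among all genes 1.93% were called lower. Aldh2 (chromosome 5, 121566027 to 121593824), the mitochondrial acetaldehyde dehydrogenase, had 743 and 659 FPKM in H2D and 1069.9 and 1119 FPKM in NCD (-0.64 ± 0.12, adjusted p = 0.0318). Aldh1a1, which also makes retinoic acid, had 275 and 269 FPKM in H2D and 623 and 623 FPKM in NCD (-1.20 ± 0.22). The fatty aldehyde dehydrogenase Aldh3a2 (-1.03 ± 0.22), the alcohol dehydrogenase Adh1 (-0.53 ± 0.11) and the retinal reductase Rdh11 (-1.13 ± 0.20) fell as well. All 6 calls ended when any 1 of the 4 pools was left out. Nuclear genes of the respiratory chain were all lower, 37 of 37, with a median difference of -0.31, but 3 were called, Ndufb3, Ndufa5 and Uqcrc2, and 0 of the 13 mitochondrially encoded genes were called (median -0.34).

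Liver genes with higher levels in males than in females had more falls than rises, where 1.93% of all genes were called lower and 2.15% higher. Of 27 male-biased genes 12 fell and 1 rose (median -1.16; 2 to 8 calls without 1 H2D or NCD pool). The fatty acid hydroxylase Cyp4a12a had 17.4 and 11.1 FPKM in H2D and 65.8 and 101 FPKM in NCD (-2.51 ± 0.30, adjusted p = 0.00711), and the male P450 Cyp2d9 had 102 and 109 FPKM in H2D and 371 and 458 FPKM in NCD (-1.96 ± 0.18, adjusted p = 0.00468). The acetyltransferase-like Cml5 had 2.69 and 2.65 FPKM in H2D and 16.5 and 17.7 FPKM in NCD (-2.47 ± 0.21). Among major urinary protein genes, which encode pheromone carriers, Mup20 had 5752 and 5417 FPKM in H2D and 10683 and 12777 FPKM in NCD (-1.07 ± 0.19) and Mup12 had 65.0 and 37.5 FPKM in H2D and 262 and 286 FPKM in NCD (-2.46 ± 0.52), and Cyp4a12b fell too (-2.48 ± 0.45). In all of these the groups did not overlap, which also held for some uncalled genes. Egfr, the male-biased receptor of epidermal growth factor, rose by 0.63 ± 0.13, with 220.3 and 182 FPKM in H2D and 129 and 129 FPKM in NCD. Of 24 female-biased genes 1 rose, the steroid 17α-hydroxylase Cyp17a1, at 72.1 and 87.5 FPKM in H2D and 16.6 and 11.5 FPKM in NCD (2.48 ± 0.27, adjusted p = 0.00589), and the list median was 0.03. That median depends on single pools: it was -0.23 without H2D pool 1, 0.59 without H2D pool 2, 1.04 without NCD pool 1 and -0.28 without NCD pool 2. Of 21 growth hormone and IGF axis genes Egfr was the 1 call. Igf1 had 315 and 269.8 FPKM in H2D and 290.2 and 262 FPKM in NCD, and the receptor Ghr had 156 and 145 FPKM in H2D and 213 and 223 FPKM in NCD (adjusted p = 0.165).

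Glucocorticoid-responsive genes included 4 rises and 2 falls among 20 (0 to 3 calls without 1 H2D or NCD pool). Fkbp5, a chaperone induced by glucocorticoids, had 28.4 and 25.7 FPKM in H2D and 12.6 and 13.2 FPKM in NCD (1.04 ± 0.11, adjusted p = 0.0047), and Tsc22d3, known as GILZ, rose by 0.44 ± 0.09. Mt1 and Mt2 were the other rises. Serpina6, which carries cortisol and corticosterone in plasma, fell (-1.41 ± 0.24), as did Hsd11b1, the enzyme that regenerates active glucocorticoid (-0.72 ± 0.13). Of 34 urea cycle and amino acid enzymes 3 rose, the serine dehydratases Sds (113 and 101 FPKM in H2D and 45.7 and 48.6 FPKM in NCD; 1.17 ± 0.18) and Sdsl (0.83 ± 0.16) and the aspartate aminotransferase Got1 (0.83 ± 0.17), and the list median was 0.002. Of 18 pericentral genes 3 fell, Cyp1a2, the glutamine synthetase Glul (-0.81 ± 0.17) and Lect2 (-0.47 ± 0.10). Of 32 genes of glucose metabolism 2 fell, the glycogen-targeting subunit Ppp1r3g and the pyruvate carrier Mpc2, and of 20 apolipoprotein genes 1 rose, the receptor Lrp1. Counts this small are to be read beside the 2.15% of all genes called higher and 1.93% called lower.

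No gene was called in 7 further groups, against 4.08% of all genes. These were the 28 cell cycle genes, 31 interferon-stimulated genes, 16 antigen presentation genes, 16 oncofetal and tumour markers, 27 hepatocyte transcription factors, 18 clock genes and 42 ribosomal protein genes. The proliferation marker Mki67 had 3.49 and 3.75 FPKM in H2D and 2.25 and 2.78 FPKM in NCD (0.46 ± 0.28, adjusted p = 0.441). The fetal protein Afp had 30.2 and 48.8 FPKM in H2D and 25.6 and 38.7 FPKM in NCD, and the oncofetal proteoglycan Gpc3 had 93.0 and 38.2 FPKM in H2D and 53.5 and 72.8 FPKM in NCD. Both genes overlap between the groups. The hepatocyte factor Hnf4a had 156 and 146 FPKM in H2D and 139 and 152 FPKM in NCD. The fetal growth factor Igf2 stood out in 1 pool, with 12.3 and 1.56 FPKM in H2D and 0.638 and 0.476 FPKM in NCD (adjusted p = 0.139). A p that misses the threshold with 2 pools a group does not show that levels were alike. Single calls in further lists are to be read beside the 4.08% of all genes called. They were Pmaip1, a p53 target that promotes apoptosis (1.08 ± 0.23, among 22 p53 and DNA damage genes), and Junb, an AP-1 subunit (0.71 ± 0.13, among 15 immediate early genes). The others were the kinase Map3k6 (0.70 ± 0.15, among 14 RAS-MAPK feedback genes) and Chac1, a glutathione-degrading enzyme of the ATF4 response (1.06 ± 0.22, among 27 ER stress and ATF4 genes). The list medians, in that order, were -0.010, 0.201, 0.045 and 0.034.

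The other high-fat groups share own diet with H2D and differ from it in maternal ancestry and cohort. Tested directly, H2D differed from H1D for 17 genes (0.147% of those tested), 16 of them higher in H2D, and from H3D for 59 genes (0.511%), 53 of them higher in H2D; 1125 and 1478 genes had an unadjusted p under 0.05. Both counts move with single pools, from 0 to 35 against H1D and from 17 to 120 against H3D, and the H1D count was 0 without H1D replicate 1 and without each of the H2D and NCD pools; it was 28 and 35 without a Nor pool and 30 and 29 without an H3D pool. Against H3D it was 17 without H2D replicate 1 or H3D replicate 1, 18 without H2D replicate 2, 32 without H3D replicate 2, 34 and 35 without an NCD pool, 120 without either H1D pool and 105 without either Nor pool. Against H1D 6 of 31 acute phase genes were higher. Saa1 had 3479 and 7849 FPKM in H2D and 113 and 228 FPKM in H1D (5.02 ± 0.60, adjusted p = 0.0438), and Orm2 had 794 and 1311 FPKM in H2D and 19.3 and 81.3 FPKM in H1D (4.66 ± 0.57, adjusted p = 0.0438). Itih3 had 795 and 844 FPKM in H2D and 463 and 468 FPKM in H1D (0.82 ± 0.09). H3D pools had 788 and 2378 FPKM of Saa1 and 338 and 504 FPKM of Orm2, under both H2D pools in each case, and neither difference was called (adjusted p = 0.211 for Saa1 and 0.398 for Orm2). The neutrophil markers without Lcn2 summed to 528 and 636 FPKM in H2D, 29.4 and 133 FPKM in H1D and 360 and 1018 FPKM in H3D.

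Against H3D the higher genes included many major urinary protein and other male-biased genes. Hsd3b5, a male-biased steroid dehydrogenase, had 20.0 and 10.1 FPKM in H2D and 0.0720 and 0.113 FPKM in H3D (4.64 ± 0.34, adjusted p = 0.00288). Cyp4a12a had 17.4 and 11.1 FPKM in H2D and 0.587 and 0.524 FPKM in H3D (3.77 ± 0.30), and Mup12 had 65.0 and 37.5 FPKM in H2D and 0.372 and 0.610 FPKM in H3D (5.66 ± 0.52). Hepcidin, Hamp, had 1093 and 758 FPKM in H2D and 142 and 42.0 FPKM in H3D (3.55 ± 0.49, adjusted p = 0.0286). Both H3D pools thus lay under both H2D pools for each of these 4 genes. Cyp3a11 had 164 and 164 FPKM in H2D and 121 and 365 FPKM in H3D, which overlap. Lower in H2D than in H3D were the transferase Gstm3 (-2.51 ± 0.39), the sulfiredoxin Srxn1 (-1.49 ± 0.17) and Map3k6 (-1.01 ± 0.15).

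**Figure D4:**
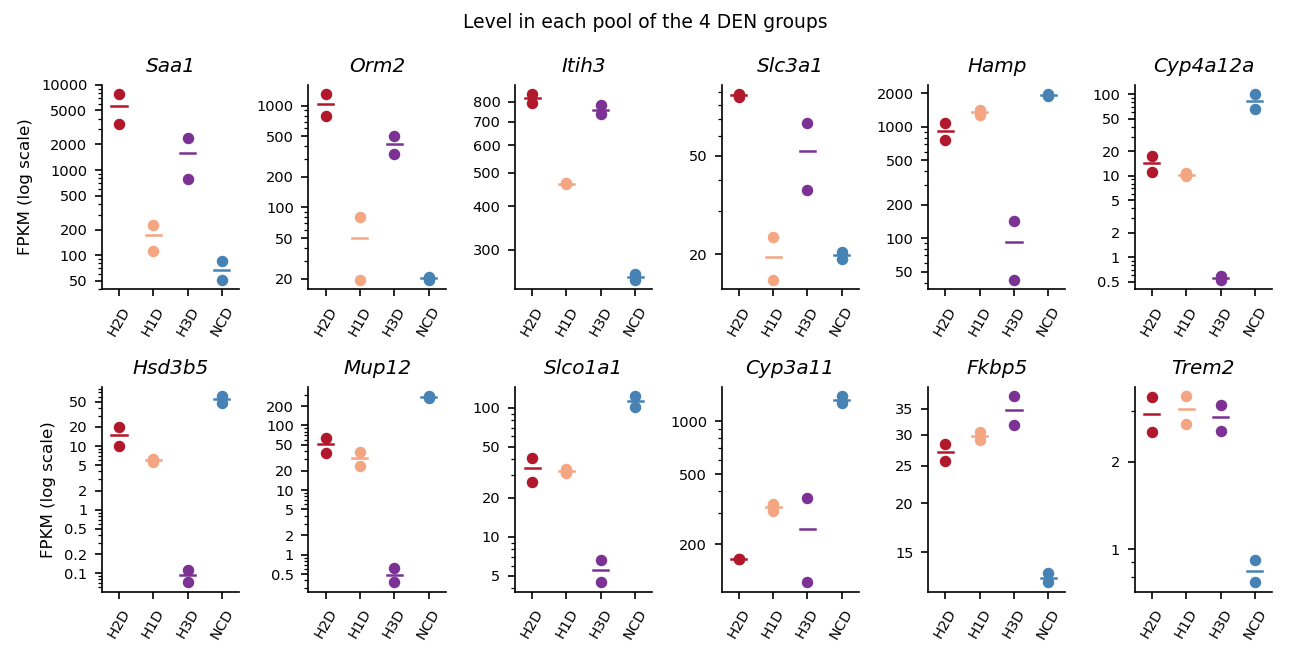
Level in each pool (FPKM, log axes that differ between panels) of 12 genes in H2D, H1D, H3D and NCD, with a bar at the mean of 2 pools. Saa1, Orm2 and Slc3a1 lie high in H2D and H3D and lower in H1D. There Slc3a1 lies around NCD, both pools of Saa1 lie above NCD and the pools of Orm2 lie wide apart. Cyp4a12a, Hsd3b5, Mup12 and Slco1a1 are lowest in H3D, and Fkbp5 and Trem2 lie above NCD in all 3 high-fat groups.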

How the data were processed

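Long RNA was measured in 10 libraries, 2 pools in each of 5 groups, after removal of ribosomal RNA and sequencing of 125-nucleotide paired reads, per the labels' protocols. The authors deposited FPKM values per transcript; the submitters' processing notes name the build GRCm38 and, with no role or order, SAMtools 0.1.18, GATK, Picard 1.96, Bowtie2 2.0.6, Cuffdiff 2.1.1, TopHat2 2.0.9 and Cufflinks 2.1.1. FPKM of the 50660 transcripts were summed by gene, genes reaching 1 FPKM in 2 or more of the 10 libraries were kept, and log2(FPKM + 0.5) was fitted with limma 3.58.1 (R 4.3.3), with 5 groups, a variance trend and 5 residual degrees of freedom. Calls are two-sided with a Benjamini-Hochberg adjusted p under 0.05 over the 11557 genes. The limma step was tested on simulated log2 values with some genes shifted in H2D, and the other steps were not tested in this way. Group labels name no animals, so p-values measure the spread between pools.

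The comparison, its gene lists and the genes tracked were chosen with earlier results of these data known. Genes named are the 12 largest called rises and the 12 largest called falls whose mean reached 2 FPKM in H2D or NCD, passing over those known only by a clone or predicted-gene number, the called members of 47 lists and 30 chosen genes; uncalled list members and genes of no list were picked after their values were seen. Alternatives were other pseudocounts, filters, scalings, the compared groups alone, transcripts, no variance trend, the replicate block and leaving out each pool. Coordinates and promoters come from RefSeq on GRCm38.p6, matched by symbol. Noncoding and small RNA tables were not used here, and a few genes are not reported here.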

Additional observations from a re-analysis of the deposited data

Results flagged for a closer look

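These genes were called in a direct test of H2D against another high-fat group. The calls against H1D depend on the settings, as given further below, so a difference is not settled for those genes. Hamp, Ghr and Cyp2e1, which were called against H3D, were not called in H2D minus NCD. All values below are log2 differences of the direct tests, from limma on log2(FPKM + 0.5), with an adjusted p under 0.05 in each case, over 2 pools a group. No explanation was tested.

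H2D was higher than H1D for the plasma protein genes Itih3 (0.82), Lrg1 (0.88), Orm1 (1.98), Orm2 (4.66), Saa1 (5.02) and Saa2 (5.98). It was also higher for Syne4 (1.48), Slc3a1 (2.16), Cxcl14 (2.29), Dnajc12 (2.29), Scara5 (2.34) and Reg3b (2.85). Prom2 was lower in H2D than in H1D (-1.86). Calls against H1D ended when H1D replicate 1 or any 1 of the H2D and NCD pools was left out.

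H2D was higher than H3D by over 4 log2 units for Mup19 (4.57), Hsd3b5 (4.64), Mup15 (4.78), Mup17 (4.94) and Mup12 (5.66). The difference was smaller for Cyp2e1 (1.94), Mup21 (2.21), Cml5 (2.39), Slco1a1 (2.50), Car3 (2.70), Hamp (3.55) and Cyp4a12a (3.77). It was smaller again for Lect2 (0.72), Tsc22d3 (0.78), Ghr (1.27), Col5a2 (1.38), Sucnr1 (1.47), Cyp2d9 (1.49), Inmt (1.77) and Cyp1a2 (1.85). H2D was lower than H3D for Gstm3 (-2.51), Srxn1 (-1.49) and Map3k6 (-1.01). The close copies among the Mup genes can share reads.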

How the results depend on the processing

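Depth in absolute terms is unknown, 2 pools stand for each group, and absence of a call does not show equal levels. The number of genes called in H2D minus NCD was 471; it was 795 with the compared groups alone, 256 with each transcript tested and 250 with no filter, and ranged from 32 to 656 when 1 pool was left out. In H2D minus H1D the 17 calls became 1 with the compared groups alone, 3 with no filter and 0 with each transcript tested, no variance trend or a pseudocount of 0.1, and ranged from 0 to 35 without 1 pool. In H2D minus H3D the 59 calls became 36 with no filter and 39 with no variance trend, and ranged from 17 to 120. The cause was not tested. With replicate number as a block, the counts were 496 against NCD, 8 against H1D and 52 against H3D, but the labels do not say whether the numbers pair pools, and deviations of same-numbered pools correlated between -0.053 and 0.225 over the pairs of groups (0.046 for H2D and NCD). Equal FPKM sums turned the medians of the p53, glycolysis and clock lists above 0. Leaving out a pool cannot change the sign of a gene whose H2D and NCD pools do not overlap. Of 209 called genes followed one by one, 0 changed sign under any alternative. Uncalled genes that did, with the other end of their range over single pools left out, were Hnf4a (-0.01 without NCD replicate 1, up to 0.118), Afp (-0.061 without H2D replicate 2 and -0.011 without NCD replicate 1, up to 0.623), Gpc3 (0.048 with equal FPKM sums, 0.056 with quantile scaling, 0.573 without H2D replicate 2 and 0.157 without NCD replicate 2, down to -0.699), Col1a1 (-0.2 without H2D replicate 2, up to 0.755), Igf1 (-0.032 without H2D replicate 1, up to 0.191), Cyp2c69 (1.032 without H2D replicate 2 and 1.845 without NCD replicate 1, down to -2.154), Sult3a1 (1.176 without NCD replicate 1, down to -3.075) and A1bg (0.546 without H2D replicate 2 and 1.364 without NCD replicate 1, down to -2.1).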

Other observations

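Of the 471 called genes 303 belonged to no list, 174 of them higher and 129 lower in H2D. Those described here were chosen after their values were seen. Innate sensing genes were among the higher ones, with the endosomal receptor gene Tlr7 at 3.62 and 3.58 FPKM in H2D and 1.5 and 1.5 FPKM in NCD (1.04 ± 0.18, adjusted p = 0.022) and Tlr8 at 3.37 and 3.46 FPKM in H2D and 1.30 and 1.32 FPKM in NCD (1.11 ± 0.19). The NADPH oxidase subunit gene Cybb (0.88 ± 0.16) and the peptidoglycan recognition protein gene Pglyrp1 (1.75 ± 0.17) rose too. Among hepatocyte genes, Nnmt, which methylates nicotinamide, had 158 and 168 FPKM in H2D and 45.7 and 42.2 FPKM in NCD (1.88 ± 0.30). Fibronectin, Fn1, had 624 and 593 FPKM in H2D and 350.4 and 343 FPKM in NCD (0.81 ± 0.13). Slc3a1, a subunit of the cystine and dibasic amino acid transporter, had 88.7 and 86.4 FPKM in H2D and 19.2 and 20.4 FPKM in NCD (2.12 ± 0.29). Ang and Rnase4, which overlap in the genome and so cannot be told apart by reads of their shared exons, rose by 1.43 ± 0.30 and 1.36 ± 0.25.

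Lower genes of no list included antioxidant enzymes. Catalase, Cat, had 636 and 546 FPKM in H2D and 952 and 1009.6 FPKM in NCD (-0.73 ± 0.14, adjusted p = 0.0325), and Sod1, the cytosolic superoxide dismutase, had 789 and 757 FPKM in H2D and 1094 and 1120.4 FPKM in NCD (-0.52 ± 0.11). Csad, which makes hypotaurine for taurine synthesis, had 27.8 and 25.0 FPKM in H2D and 127 and 145 FPKM in NCD (-2.34 ± 0.22, adjusted p = 0.00468). The succinate receptor gene Sucnr1 had 5.79 and 5.48 FPKM in H2D and 28.9 and 27.1 FPKM in NCD (-2.22 ± 0.22). The groups did not overlap for any of these 4 genes, which also held for some uncalled genes.

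Pools of 1 group differed in female-biased genes. Pool 1 was higher than pool 2 by over 1 log2 unit for 10 of 24 such genes in H2D and 10 of 24 in NCD, and for 0 the other way. Differences of that size in either direction were seen for 1.1% of all genes in H2D and 0.865% in NCD. In H1D 1 gene of the list was higher in pool 1 and 8 in pool 2, in Nor 0 and 4, and in H3D 0 and 0. Cyp2c69 had 24.8 and 4.39 FPKM in H2D and 49.0 and 2.60 FPKM in NCD. What the animals of these pools had in common is not stated.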
